A study of Mus musculus with 12 samples.

Results

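Brown adipose tissue (BAT) burns fuel to make heat, and it also releases proteins and lipid mediators that act on neighbouring cells or on distant organs. The 10 genes described here, of 25124 genes measured, encode secreted factors reported from brown fat, and they were chosen by name. They are the endocrine hormone Fgf21, the EGF-family ligand Nrg4, the TGF-beta superfamily members Bmp8b, Gdf15 and Mstn (myostatin), the cytokine Il6, the guidance protein Slit2, the growth factor Igf1, the phospholipid transfer protein Pltp, and Ptgds, the lipocalin-type enzyme that makes prostaglandin D2. All 10 symbols were found once in the table of values. FGF21 signals through FGF receptors together with beta-Klotho, NRG4 through ERBB4 and ERBB3, IL-6 through IL6RA and gp130, GDF15 through GFRAL and RET, and SLIT2 through ROBO receptors. IGF1 binds IGF1R and is held in tissue fluid by IGF binding proteins, whereas PLTP moves phospholipids between lipoprotein particles.

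Interscapular BAT RNA from male mice aged 10 weeks was sequenced as 12 libraries, 3 for each of 4 groups. The groups are RT WT and RT Txnip-/- (1 week at 23 °C, room temperature) and TN WT and TN Txnip-/- (1 week at 30 °C, thermoneutrality, at which mice need little extra heat). Txnip encodes thioredoxin-interacting protein, an arrestin-family protein. The Txnip-/- mice were kept on the C57B/6J background, both genotypes had the same housing before acclimation, and no promoter or cell type that would limit the deletion to BAT is named. The labels tie no library to a single animal, so the tests measure the spread between these libraries, which may be partly technical.

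In units of 1000000 reads, sequencing gave 29.93 to 47.44 per library (median 37.52), of which 19.19 to 29.23 fell on the exons of the listed genes. The share on these exons was 65.8 to 68.24% in the RT libraries and 58.7 to 65.49% in the TN libraries. Its part in the differences between temperatures was not tested. Txnip itself was at 564 to 694 TPM (reads scaled for transcript length and library size, so that levels of different genes can be compared) in RT WT and 24.8 to 35.4 in RT Txnip-/-, and at 1072 to 1238 TPM in TN WT and 10.5 to 14.4 in TN Txnip-/-, in accord with each label. Of the 7 brown adipocyte markers, whose sum of 17200 to 29400 TPM is mostly the general adipocyte gene Fabp4, Ucp1 was at 3770 to 4366 TPM in RT WT and 154 to 339 TPM in TN Txnip-/-, Cidea at 1667 to 2701 TPM over all libraries, and Elovl3 at 20.2 to 35.1 TPM in RT WT and 0.202 to 0.469 TPM in TN Txnip-/-. The 9 skeletal muscle markers summed to 2.58 to 3.12 TPM in RT WT and 20.8 to 52.0 TPM in RT Txnip-/-, with 2.78 to 17.0 in TN WT and 3.51 to 16.5 in TN Txnip-/-. In bulk tissue, fewer cells of a type and less RNA per cell cannot be told apart.

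The 10 genes fell into 2 tiers of transcript level. Nrg4 (mean over the 12 libraries 82.3 TPM), Pltp (62.2), Ptgds (12.7) and Igf1 (7.40) were expressed in every library, and in the median library Nrg4 stood above 95.6% of all listed genes and Pltp above 93.8%. Fgf21 (0.610 TPM), Gdf15 (0.587), Il6 (0.134), Slit2 (0.119), Bmp8b (0.0522) and Mstn (0.008) averaged under 1 TPM. Only the 4 expressed genes reached the mean of at least 1 TPM that the test across all genes required, so counts of called genes below are out of 4 members tested, not 10. A gene was called when its adjusted p in limma was under 0.05 and its log2 fold change was beyond 0.32 in size.

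The first 250 bases upstream of the transcript start were read from RefSeq (GRCm38.p6, the same coordinates as mm10) for 9 of the 10 genes. Igf1 is not printed. The windows of Ptgds, Pltp and Gdf15, all called between groups, are shown, and that of Nrg4, also called, is not printed. That of Fgf21 is shown because it held more of the searched motifs than any other member's window. Capitals mark the motif matches, and each window reads 5′ to 3′ in the direction of the gene, its last base just before the transcript start. Ptgds lies on the minus strand at chr2:25469750-25469999, Pltp on the minus strand at chr2:164857709-164857958, Gdf15 on the minus strand at chr8:70632457-70632706 and Fgf21 on the minus strand at chr7:45615491-45615740.
Ptgds: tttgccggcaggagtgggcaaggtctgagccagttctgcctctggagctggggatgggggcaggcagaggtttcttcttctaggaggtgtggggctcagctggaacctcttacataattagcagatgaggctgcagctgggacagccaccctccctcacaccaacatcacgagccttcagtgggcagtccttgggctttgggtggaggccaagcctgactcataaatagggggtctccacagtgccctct
Pltp: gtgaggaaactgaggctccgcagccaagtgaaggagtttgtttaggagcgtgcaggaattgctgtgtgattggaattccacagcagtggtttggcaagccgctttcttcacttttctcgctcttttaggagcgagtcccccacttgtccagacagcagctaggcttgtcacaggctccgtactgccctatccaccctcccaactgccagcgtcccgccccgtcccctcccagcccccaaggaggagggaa
Gdf15: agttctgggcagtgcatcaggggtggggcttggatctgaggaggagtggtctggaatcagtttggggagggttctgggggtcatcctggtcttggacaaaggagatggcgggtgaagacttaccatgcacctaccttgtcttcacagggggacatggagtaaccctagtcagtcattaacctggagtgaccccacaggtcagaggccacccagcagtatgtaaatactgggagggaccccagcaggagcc
Fgf21: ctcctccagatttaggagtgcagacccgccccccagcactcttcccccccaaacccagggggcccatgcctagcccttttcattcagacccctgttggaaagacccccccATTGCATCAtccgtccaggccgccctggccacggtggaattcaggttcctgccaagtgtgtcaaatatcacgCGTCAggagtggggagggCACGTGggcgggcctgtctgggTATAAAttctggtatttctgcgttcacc
The motifs searched on both strands were the CREB-family core site TGACG and full site TGACGTCA, the E-box CACGTG, the ATF4 with C/EBP element TGATGNAAN and the TATA box TATAAA. The CREB core site is contained in the full site. The Fgf21 window held the ATF4 with C/EBP element at -140 to -132, a CREB core site at -68 to -64, the E-box at -50 to -45 and a TATA box at -28 to -23, all counted from the transcript start. Of 32851 RefSeq windows of the same length, 3.44% hold the ATF4 with C/EBP element, 17.8% the CREB core site, 6.02% the E-box, 12.4% the TATA box and 1.55% the full CREB site. None of these motifs was found in the windows of Ptgds, Pltp, Gdf15, Nrg4 and Bmp8b, which says only that these letters are not in these 250 bases. The windows of Il6 (CREB core site), Slit2 (TATA box) and Mstn (CREB core site and TATA box) held the remaining matches.

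Of the 10 secreted factors, Ptgds differed between genotypes at both temperatures. Its gene lies on chromosome 2 (25466712 to 25469749, minus strand, mm10), and no exon of another gene overlaps its exons. RT WT libraries held 18.2, 17.0 and 24.5 TPM of Ptgds and RT Txnip-/- libraries 6.69, 5.10 and 6.35 TPM. Under TN conditions the WT libraries held 14.8, 18.1 and 19.1 TPM and the Txnip-/- libraries 6.51, 8.03 and 7.91 TPM. The genotypes did not overlap at RT or at TN, with all 3 Txnip-/- values the lower ones, as was so in either direction for 22.6% of all tested genes at RT and 31.1% at TN. The mean in Txnip-/- BAT was 30.4% of that in WT at RT and 43.2% at TN. These means rest on 962 and 295 recovered exon reads in RT WT and RT Txnip-/-, and on 815 and 325 reads in TN WT and TN Txnip-/-.

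On the log2(TPM + 1) scale, which understates the change of low genes, Ptgds fell by 1.56 at RT (SE 0.15, adjusted p = 0.0123 in limma) and by 1.11 at TN (SE 0.11, adjusted p = 0.0035). On the log-scale values of the authors the differences were smaller, -0.77 and -0.58, and both were called (adjusted p = 0.0111 and 0.0011). At RT it was the member called among 4 tested, where 1.49% of all 11980 tested genes were called and 0.726% were called lower. The RT call was lost without RT WT replicate 2 (log2 difference -1.66, adjusted p = 0.0515), a fit in which 2 genes were called in place of 178. The 3 values against 3 alone, in an exact two-sided permutation test, cannot give a p below 0.1. Between temperatures the difference of Ptgds did not pass, at -0.18 in WT (95% interval -0.49 to 0.13, adjusted p = 0.311) and 0.27 in Txnip-/- (-0.04 to 0.58, adjusted p = 0.135). In the order of group means, RT WT (19.9 ± 4.01, SD, n = 3) and TN WT (17.3 ± 2.23) are neighbours that overlap, and so are TN Txnip-/- (7.48 ± 0.843) and RT Txnip-/- (6.05 ± 0.836). The 6 Schwann cell markers summed to 14.9 to 67.8 TPM in RT WT, 13.4 to 44.9 in RT Txnip-/-, 23.3 to 36.4 in TN WT and 27.5 to 64.7 in TN Txnip-/-, and 0 of 6 were called between genotypes at either temperature. The 9 muscle markers summed to 2.58 to 3.12 TPM in RT WT and 20.8 to 52.0 in RT Txnip-/-. At TN they summed to 2.78 to 17.0 in WT and 3.51 to 16.5 in Txnip-/-. Most that were tested at RT reached the minimum mean only through RT Txnip-/-, so their calls are not counted. Ckm, for example, was at 0.032 to 0.159 TPM in RT WT and 3.75 to 9.32 in RT Txnip-/-. Of the 7 brown adipocyte markers, 1 was called lower in Txnip-/- at RT (Elovl3) and 3 at TN (Cox8b, Cidea and Ucp1), and they summed to 20000 to 21600 TPM in TN WT and 17200 to 19000 in TN Txnip-/-. Macrophage markers were called higher in Txnip-/- for 2 of 7 tested at RT and 7 of 8 at TN, fibroblast markers for 6 of 8 at TN, and the mural marker Cspg4 was called lower at RT. The part of these markers in the Ptgds values was not tested.

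The genes whose 12 library values most resembled those of Ptgds were Gldn (gliomedin, a matrix protein of the node of Ranvier) and Aldh1l1 (a folate enzyme), with a Pearson r of 0.966 and 0.919 on the log2 scale among 11799 genes searched. Mean Gldn was 7.77 TPM in WT and 0.400 TPM in Txnip-/- at RT, and 8.68 and 0.359 TPM at TN. Aldh1l1 had means of 33.9 and 12.7 TPM at RT and 28.3 and 13.1 TPM at TN. Both had lower means in Txnip-/- at each temperature, as Ptgds did, and the correlations describe 4 group levels more than 12 independent points.

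Prostaglandin D2 is made from prostaglandin H2 and acts on its own receptors. Of 5 listed genes of this route, Ptgs1 (COX-1, which makes the precursor prostaglandin H2) and Hpgds (the haematopoietic-type prostaglandin D synthase) reached the minimum, and Ptgs2 and the receptors Ptgdr and Ptgdr2 did not. Ptgs1 was at 0.928 to 1.47 TPM in RT WT and 2.54 to 3.001 TPM in TN WT, and it rose in TN against RT by 0.75 in WT (SE 0.12, adjusted p = 0.0006) and by 0.71 in Txnip-/- (adjusted p = 0.0005). Hpgds had means of 0.369 and 0.544 TPM in RT WT and RT Txnip-/- and of 1.45 and 1.76 in TN WT and TN Txnip-/-. It reached the minimum over the 12 libraries only through the TN groups, so its differences of 0.82 and 0.84 are given without a test. Between temperatures 37.8% of all tested genes were called in WT and 39.2% in Txnip-/-. In the same comparisons 7 of 8 macrophage markers were called higher in each genotype, and their part was not tested. The Ptgs1 calls in both genotypes also held after each library was centred on its median. Between genotypes at TN Ptgs1 was at 0.26 (adjusted p = 0.175) and Hpgds at 0.20 (adjusted p = 0.512), and neither was called.

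**Figure D1:**
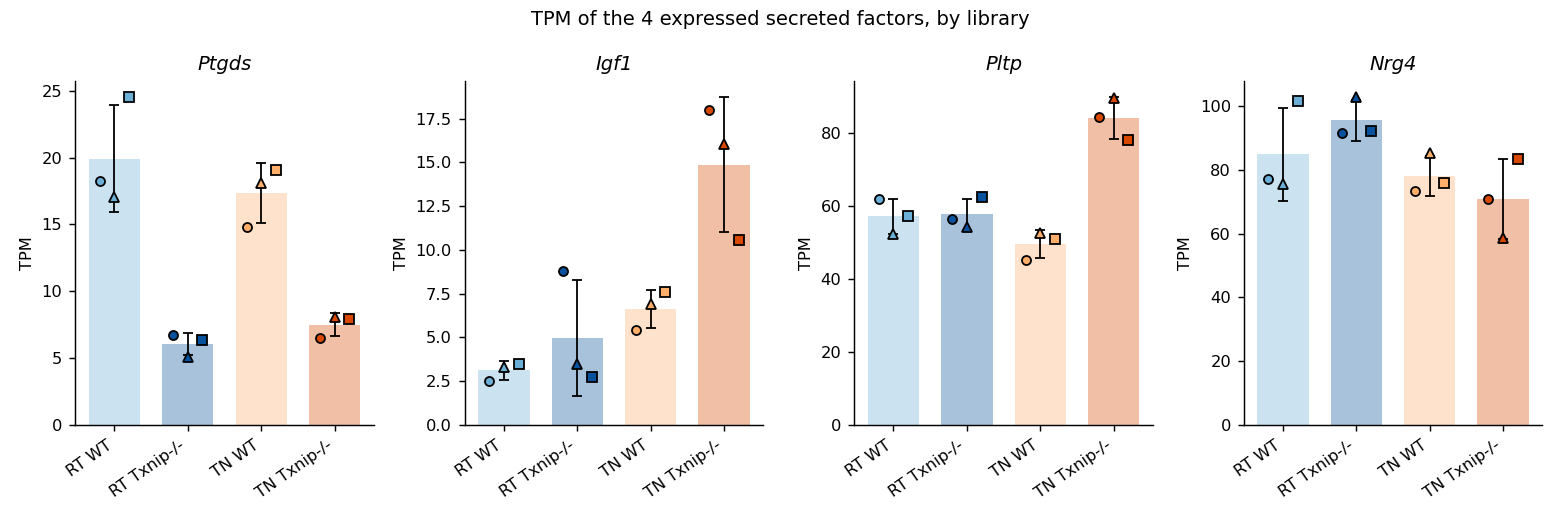
TPM of Ptgds, Igf1, Pltp and Nrg4 (vertical axes, each from 0) in the 4 groups, with a circle, triangle and square for replicates 1, 2 and 3, bars for means and whiskers for SD (n = 3). Ptgds is lower in both Txnip-/- groups, while Igf1 and Pltp stand highest in TN Txnip-/- with 10.6 to 18.0 and 78.2 to 89.7 TPM.

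Igf1 transcripts were most abundant in TN Txnip-/- BAT. The gene lies on chromosome 10 (87859052 to 87937047, plus strand). RT WT libraries held 2.51, 3.32 and 3.50 TPM, RT Txnip-/- libraries 8.79, 3.46 and 2.71 TPM, TN WT libraries 5.42, 6.88 and 7.59 TPM, and TN Txnip-/- libraries 18.0, 16.1 and 10.6 TPM. The TN groups do not overlap each other, as was so for 31.1% of all tested genes. TN WT lies above RT WT in all 3 libraries, groups that did not overlap for 57.5% of all tested genes. RT Txnip-/- replicate 1, with 1283 reads on Igf1 against 463 and 409 in replicates 2 and 3, lies above the TN WT range and stands apart from its own group.

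Under TN conditions Igf1 rose in Txnip-/- against WT by 1.04 (SE 0.19, adjusted p = 0.0161), a ratio of mean TPM of 2.24. It was 1 of 3 members called of 4 tested at TN, where 8.66% of 12891 tested genes were called, 6.49% higher and 2.17% lower. The call was lost without TN Txnip-/- replicate 1 (0.89, adjusted p = 0.0546) or replicate 2 (0.97, adjusted p = 0.0620). At RT the difference was 0.41 (95% interval -0.37 to 1.20, adjusted p = 0.609), and without RT Txnip-/- replicate 1 it was -0.0077. The log-scale values of the authors are for another Igf1 transcript than the TPM, and with them the TN call held and the RT value was not called. The difference between the genotype effects, 0.62 (-0.32 to 1.56, interaction adjusted p = 0.577), did not pass.

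Igf1 was also higher at TN than at RT in each genotype. In WT the difference was 0.89 (SE 0.30, adjusted p = 0.0295) and in Txnip-/- 1.51 (SE 0.30, adjusted p = 0.0017), ratios of mean TPM of 2.13 and 2.98. Between temperatures 37.8% of 12486 tested genes were called in WT and 39.2% in Txnip-/- (31.4% and 30.9% higher), the groups did not overlap for 57.5% and 61.1%, and the median difference of all genes was 0.18 and 0.15 on the log2 scale. After each library was centred on its median, 1926 genes were called higher and 1841 lower in WT and 2294 and 2435 in Txnip-/-. With this centring the WT value of Igf1 was 0.71 (adjusted p = 0.0773, no call) and the Txnip-/- value 1.32, still called. The WT call was also lost without the filter on low TPM (adjusted p = 0.0524), without RT WT replicate 1 (0.78, adjusted p = 0.0838) or 2 (0.93, 0.0537) and without TN WT replicate 2 (0.86, 0.0753) or 3 (0.80, 0.0855).

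Markers of several cell types differed in the comparisons in which Igf1 was called. Those of macrophages, cells known to express Igf1 in many tissues, and of fibroblasts are given first. The 8 macrophage markers, none of them at 0, summed to 35.5 to 43.9 TPM in RT WT, 55.1 to 80.0 in RT Txnip-/-, 70.7 to 111 in TN WT and 182 to 258 in TN Txnip-/-. Of them 7 of 8 were called higher in TN Txnip-/- against TN WT and 2 of 7 tested at RT, and 7 of 8 were called higher at TN in each genotype. Of all tested genes, 6.49% were called higher between genotypes at TN. Between temperatures 31.4% were called higher in WT and 30.9% in Txnip-/-. The 8 fibroblast markers summed to 215 to 259, 252 to 302, 371 to 492 and 771 to 788 TPM in the same order of groups, with 6 of 8 called higher in TN Txnip-/- against TN WT and 0 of 8 at RT. Within RT Txnip-/-, the Igf1-rich replicate 1 had a macrophage sum of 74.6 TPM, between the 55.1 and 80.0 TPM of replicates 2 and 3, and the highest fibroblast sum, 302 TPM against 252 and 277 TPM. In TN against RT, endothelial markers were called higher for 4 of 6 in WT and 6 of 6 in Txnip-/-, and Schwann markers for 3 of 6 in Txnip-/-. Brown adipocyte markers were called lower for 4 of 7 in WT and 5 of 7 in Txnip-/-. Between genotypes at TN, 1 of 6 endothelial markers was called higher and 3 of 7 brown adipocyte markers lower. The part of these cells in the Igf1 values was not tested.

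**Figure D2:**
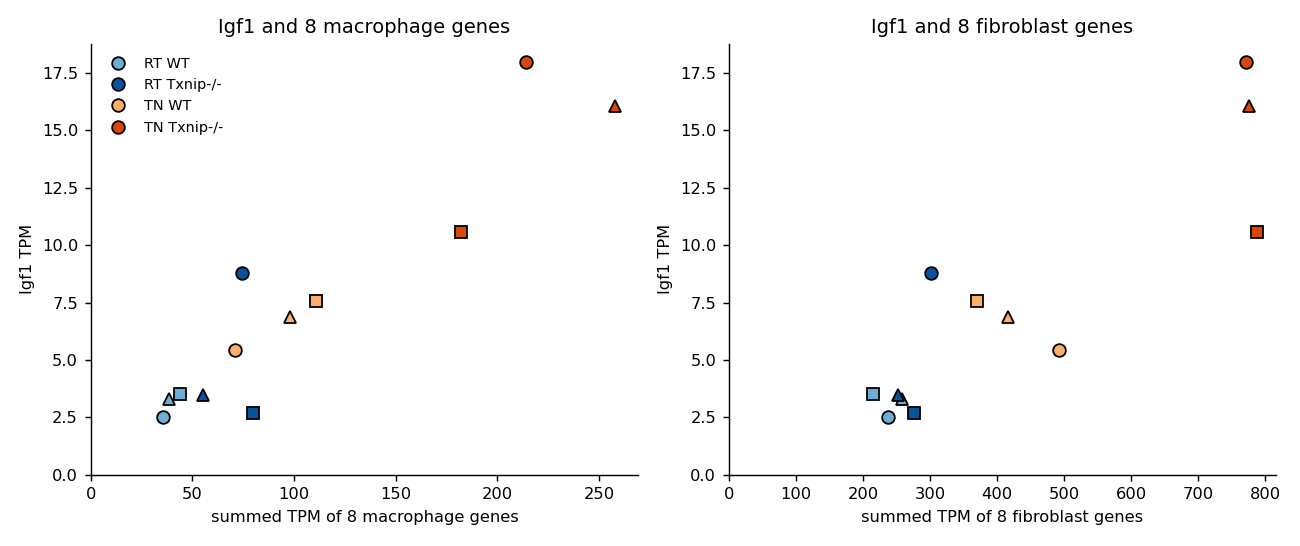
Igf1 TPM (vertical axis) against the summed TPM of 8 macrophage markers (left) and 8 fibroblast markers (right) in the 12 libraries, coloured by group, with a circle, triangle and square for replicates 1, 2 and 3. The TN Txnip-/- libraries stand at the upper right, and RT Txnip-/- replicate 1 lies at 8.79 TPM with marker sums near those of its group.

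The genes most like Igf1 over the 12 libraries were Litaf (an endosomal membrane protein, r = 0.974) and Rpl10a (a ribosomal protein, r = 0.972). Both had their highest RT Txnip-/- value in the same library as Igf1, with 16.6 TPM of Litaf against 9.79 and 8.51 in the other two, and 98.9 TPM of Rpl10a against 83.7 and 87.0.

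The IGF binding proteins carry IGF1 and set its access to the receptor. Of 8 listed genes 6 were tested. Between genotypes 0 of 6 were called at RT and 1 of 6 at TN, where 1.49% and 8.66% of all tested genes were called. That gene, Igfbp7, rose by 0.44 (SE 0.08, adjusted p = 0.0195), a call lost in 4 of the 6 fits without 1 library and on the authors' log-scale values. In TN against RT, 3 of 6 rose in WT (Igfbp5 by 0.73, Igfbp7 by 0.60 and Igfbp4 by 0.50) and 4 of 6 in Txnip-/- (Igfbp7 by 1.05, Igfbp5 by 0.96, Igfbp4 by 0.69 and Igfbp6 by 0.68), with adjusted p between 1.3e-05 and 0.0269, where 31.4% and 30.9% of all genes were called higher. Centred on the median of each library, Igfbp4 in WT and Igfbp6 in Txnip-/- were no longer called, and Igfals, at -0.46 in WT in the uncentred fit (adjusted p = 0.104), was called lower in WT. Igfbp7 was at 98.4 to 115 TPM in RT WT, 92.9 to 116 in RT Txnip-/-, 159 to 162 in TN WT and 201 to 246 in TN Txnip-/-. The list median was 0.44 in WT and 0.69 in Txnip-/-, against 0.18 and 0.15 over all genes tested. In these comparisons 7 of 8 macrophage and 7 of 8 fibroblast markers were called higher in each genotype, and their part was not tested. The receptors Igf1r and Insr moved apart in TN against RT in Txnip-/-, Igf1r higher by 0.51 (adjusted p = 0.0021) and Insr lower by 0.42 (adjusted p = 0.0050), and the Igf1r calls, 0.39 in WT included, were lost under median centring.

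Pltp was higher in TN Txnip-/- than in any other group. The gene lies on chromosome 2 (164839518 to 164857708, minus strand). RT WT libraries held 62.1, 52.4 and 57.3 TPM, RT Txnip-/- libraries 56.5, 54.3 and 62.4 TPM, TN WT libraries 45.3, 52.7 and 51.1 TPM, and TN Txnip-/- libraries 84.4, 89.7 and 78.2 TPM. The 3 TN Txnip-/- libraries lie above the other 9. Genotypes did not overlap at TN for 31.1% of all tested genes, nor temperatures in Txnip-/- for 61.1%.

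Pltp rose in TN Txnip-/- against TN WT by 0.75 (SE 0.08, adjusted p = 0.0038), a ratio of mean TPM of 1.69, and the call held in each of 15 alternative fits, whose adjusted p ran from 0.0006 to 0.0233. At RT the difference was 0.01 (95% interval -0.18 to 0.21, adjusted p = 0.961). The difference between the genotype effects at the 2 temperatures was 0.74 (SE 0.12, 95% interval 0.47 to 1.00), with an unadjusted p of 5.69e-05 and an adjusted p of 0.0776 in limma, so it did not pass over all 12486 genes. In that interaction test 0.00801% of genes were called, which is Txnip alone, with 1571 genes at an unadjusted p under 0.05, and 0 of 4 members were called. Over the 19 alternatives the Pltp interaction ran from 0.67 to 0.80 with adjusted p between 0.056 and 0.190. The 8 macrophage and 8 fibroblast markers given above for Igf1 also moved in this group, with 7 and 6 of them called higher in TN Txnip-/- against TN WT, and their part in the Pltp value was not tested. In TN against RT Pltp rose by 0.54 in Txnip-/- (SE 0.08, adjusted p = 0.0004, and 0.35 under median centring, still called). In WT it was at -0.20 (-0.39 to -0.02, adjusted p = 0.0674), which under median centring became -0.38 with a call (adjusted p = 0.0043).

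An overlapping gene bears on Pltp. Of its exon bases, 495 (19.3% of 2562 in the GENCODE annotation) are shared with Ctsa, a lysosomal carboxypeptidase on the opposite strand, and strand use in the counting is not given in the sources used here, so reads there cannot be told apart. Ctsa was at 45.9 to 49.2 TPM in TN WT and 60.8 to 71.3 TPM in TN Txnip-/-, a difference of 0.43 (adjusted p = 0.0142). In TN against RT, Ctsa was called higher by 0.39 in WT (adjusted p = 0.0006), where Pltp was at -0.20. In Txnip-/- Ctsa was called higher by 0.76, where Pltp rose by 0.54. The share of Ctsa reads in the Pltp values was not tested. The genes most like Pltp were Atxn7l1 (r = 0.934) and Tdrp (r = 0.896), with Tdrp at 12.5 to 14.7 TPM in TN WT and 24.9 to 29.9 TPM in TN Txnip-/-.

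Lipoprotein-handling genes, which supply and receive the particles that PLTP remodels, gave 0 of 9 calls between genotypes at RT and 1 of 9 at TN, where 1.49% and 8.66% of all tested genes were called. That gene was Abcg1, a cholesterol exporter, which rose by 0.40 (SE 0.08, adjusted p = 0.0274), a call lost in 8 of 15 alternative fits. In TN against RT in WT, 4 of 9 rose and 3 fell, and in Txnip-/- 4 rose and 2 fell, beside 37.8% and 39.2% of all genes called. Angptl4, an inhibitor of lipoprotein lipase, rose by 1.24 in WT and 1.46 in Txnip-/- (adjusted p = 0.0001 and 2.32e-05), from 181 to 193 TPM in RT WT to 418 to 474 TPM in TN WT. Abcg1 rose by 0.80 and 0.79. Lpl, lipoprotein lipase itself, fell by 0.41 and by 0.36 (adjusted p = 0.0054 and 0.0104, the latter call lost without RT Txnip-/- replicate 2 or TN Txnip-/- replicate 3), and Nr1h3, which encodes the sterol-sensing receptor LXR-alpha, fell by 0.50 and by 0.56. Gpihbp1, the capillary anchor of lipase, rose by 0.40 and 0.53, and Apoe by 0.55 and 0.57, but both lost the WT call under median centring. In WT the remaining call was Abca1, which fell by 0.42 (adjusted p = 0.0142).

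Nrg4, the highest of the 10 in mean TPM over the 12 libraries though under Pltp in TN Txnip-/-, was lower at TN than at RT in Txnip-/- BAT, and its differences in the other comparisons did not pass. The gene lies on chromosome 9 (55220222 to 55283625, minus strand). RT WT libraries held 77.2, 75.7 and 102 TPM, RT Txnip-/- libraries 91.4, 103 and 92.3 TPM, TN WT libraries 73.3, 85.3 and 75.7 TPM, and TN Txnip-/- libraries 70.8, 58.5 and 83.5 TPM. The Txnip-/- groups do not overlap between temperatures, as was so for 61.1% of all tested genes, and the WT groups do.

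In Txnip-/- Nrg4 fell by 0.44 in TN against RT (SE 0.13, adjusted p = 0.0172), to 74.3% of the RT mean, where 8.27% of tested genes were called lower. Centred on the median of each library the difference was -0.63 and still called. The call was lost without RT Txnip-/- replicate 2 (-0.38, adjusted p = 0.0655) or TN Txnip-/- replicate 2 (-0.31, adjusted p = 0.0730). In WT the difference was -0.11 (95% interval -0.40 to 0.18, adjusted p = 0.520), and the interaction, -0.33 (-0.74 to 0.09, adjusted p = 0.496), did not separate the genotypes. Between genotypes Nrg4 was at 0.18 at RT (-0.10 to 0.45, adjusted p = 0.514) and at -0.15 at TN (-0.44 to 0.14, adjusted p = 0.519). In the order of group means, RT Txnip-/- (95.5 ± 6.29 TPM), RT WT (84.9 ± 14.6), TN WT (78.1 ± 6.32) and TN Txnip-/- (70.9 ± 12.5), each neighbour overlaps the next. The brown adipocyte markers summed to 24500 to 29400 TPM in RT Txnip-/- and 17200 to 19000 in TN Txnip-/-, with 5 of 7 called lower, and 0 of 7 higher. In WT they summed to 27900 to 28800 at RT and 20000 to 21600 at TN with 4 of 7 called lower. Within Txnip-/-, the 9 skeletal muscle markers summed to 20.8 to 52.0 TPM at RT and 3.51 to 16.5 at TN. Most of those tested reached the minimum mean only through RT Txnip-/-, so their calls are not counted. At TN against RT, 7 of 8 macrophage, 7 of 8 fibroblast and 6 of 6 endothelial markers were called higher in Txnip-/-. The part of these markers in the Nrg4 value was not tested.

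The genes most like Nrg4 were Dlat (a subunit of the pyruvate dehydrogenase complex, r = 0.921) and Aldoart1 (an aldolase relative, r = 0.909). Dlat had means of 371 and 318 TPM in WT at RT and TN, and of 374 and 286 TPM in Txnip-/-. Nrg4 shares 368 of 6075 annotated exon bases (6.06%) with Fbxo22 and 177 with the predicted gene Gm15625, both on the opposite strand, and Fbxo22 was not called in any of the 5 comparisons.

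**Figure D3:**
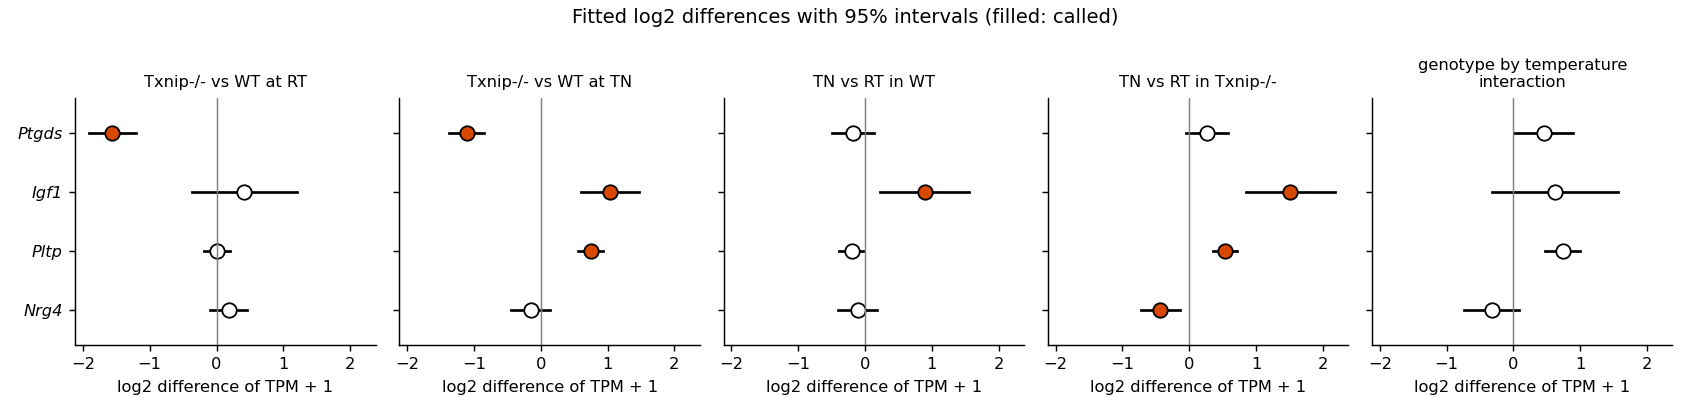
Log2 differences of TPM + 1 (horizontal axes) of Ptgds, Igf1, Pltp and Nrg4 in the 5 comparisons, with lines for 95% intervals and filled points for calls. Ptgds is called lower in Txnip-/- at RT (-1.56) and TN (-1.11), Igf1 (1.04) and Pltp (0.75) are called higher at TN, and no interaction is called.

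The receptors of these ligands were detected in BAT to different degrees. Of 13 listed receptor genes 9 were tested, and Gfral, Ret, Robo1 and Robo2 were under the minimum. Gfral, the GDF15 receptor known from the hindbrain, was at 0 to 0.136 TPM. Between genotypes 0 of 9 were called at RT and 2 of 9 at TN (1.49% and 8.66% of all genes), both for IL-6. Il6ra rose by 0.57 (SE 0.13, adjusted p = 0.0316), from 3.18 to 4.37 TPM in TN WT to 5.16 to 6.53 TPM in TN Txnip-/-, and Il6st (gp130) by 0.33 (adjusted p = 0.0488). Both calls were close to the threshold, since that of Il6ra was lost in 5 of the 6 fits without 1 library, and that of Il6st under median centring (adjusted p = 0.0640). In the same comparison 7 of 8 macrophage and 6 of 8 fibroblast markers were called higher, and their part was not tested.

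Between temperatures the NRG4 receptor Erbb3 and the FGF21 co-receptor Klb were called in both genotypes, and Fgfr1 in neither. Erbb3 rose by 0.72 in WT (SE 0.13, adjusted p = 0.0010) and by 0.85 in Txnip-/- (adjusted p = 0.0003), from 1.02 to 1.43 TPM in RT WT to 2.44 to 3.22 TPM in TN WT. Erbb4 rose by 0.53 in WT (adjusted p = 0.0090), a call lost under median centring (adjusted p = 0.0502), and was at 0.35 in Txnip-/- (adjusted p = 0.0535). This Txnip-/- value was called in 4 alternative fits, among them that with the replicate number as a block. Klb, which encodes the FGF21 co-receptor beta-Klotho, fell by 0.78 in WT (SE 0.21, adjusted p = 0.0103) and by 0.56 in Txnip-/- (adjusted p = 0.0428, lost in 5 of 6 fits without 1 library and without the filter on low TPM). Its RT WT libraries held 26.8, 21.2 and 16.1 TPM and its TN WT libraries 17.2, 9.65 and 9.85 TPM, so these groups overlap. In all, 3 of 9 receptors rose and 1 fell in WT, and 2 rose and 2 fell in Txnip-/- (37.8% and 39.2% of all genes were called), and under median centring 1 rose and 2 fell in either genotype.

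For the TGF-beta superfamily, Bmp8b and Mstn themselves were nearly absent while their receptors were present. Of 9 receptor genes 8 were tested, with 0 called between genotypes at RT or at TN. In TN against RT 4 of 8 rose in WT and 3 in Txnip-/-, where 31.4% and 30.9% of all tested genes rose, and 1 and 2 of the 8 rose under median centring. Acvr2b, the type II receptor of myostatin and activins, rose by 0.90 in WT (SE 0.10, adjusted p = 9.86e-05) and by 0.72 in Txnip-/- (adjusted p = 0.0001), both held under median centring. Acvr1b rose by 0.39 and 0.57, Acvr2a and Tgfbr1 by 0.37 and 0.37 in WT, and Acvr1 by 0.51 in Txnip-/-. Of these 5 values only that of Acvr1b in Txnip-/- kept its call under median centring. Among 8 extracellular inhibitors, 3 were tested at TN. Fstl1 (follistatin-like 1) rose in TN Txnip-/- against TN WT by 0.61 (SE 0.08, adjusted p = 0.0075), from 21.6 to 25.5 TPM to 34.4 to 38.3 TPM, and in TN against RT by 0.73 in WT and 1.06 in Txnip-/-. Fst (follistatin, which binds activins and myostatin) rose in TN against RT by 0.89 in WT (adjusted p = 0.0089) and by 1.51 in Txnip-/- (adjusted p = 0.0003). These inhibitor calls held under median centring. The fibroblast markers given above moved in the same groups, and their part was not tested.

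The 6 low members were read by their exon reads, recovered from the TPM as whole numbers. Intervals on such sums cover counting error only, since the reads carry no molecular identifiers. Gdf15, a stress-induced hormone on chromosome 8 (70629393 to 70632456, minus strand), was the low gene called between temperatures. RT WT libraries held 3, 4 and 6 reads, RT Txnip-/- libraries 6, 2 and 9, TN WT libraries 7, 30 and 32, and TN Txnip-/- libraries 23, 26 and 30. In TPM these are 0.097 to 0.251, 0.077 to 0.306, 0.206 to 1.39 and 0.922 to 1.23. TN Txnip-/- lay above RT Txnip-/- in all libraries (these groups did not overlap for 61.1% of all tested genes), whereas TN WT replicate 1 fell within the RT WT range. That library also had the lowest macrophage marker sum of its group, 70.7 TPM against 98.2 and 111 TPM, and 7 of the 8 macrophage markers were called higher at TN in each genotype. Their part in the Gdf15 values was not tested.

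The summed Gdf15 reads were 13 in RT WT (95% Poisson interval 6.92 to 22.2), 17 in RT Txnip-/- (9.90 to 27.2), 69 in TN WT (53.7 to 87.3) and 79 in TN Txnip-/- (62.5 to 98.5). The ratio of mean TPM at TN against RT was 5.76 in WT and 5.39 in Txnip-/-. In the fit without a filter on low TPM, Gdf15 rose by 0.67 in WT (adjusted p = 0.0295) and by 0.79 in Txnip-/- (adjusted p = 0.0131), where 19.7% and 20.5% of all genes were called higher and the median of all genes was 0.10 and 0.08. With limma-voom on the recovered reads, an alternative chosen after seeing the data, the differences were 2.03 (SE 0.76, adjusted p = 0.0383) and 2.49 (SE 0.71, adjusted p = 0.0104), with 38.8% and 37.0% of genes called higher and medians of 0.34 and 0.32. The WT call was lost in both fits without each of the 3 RT WT libraries or TN WT replicate 2 or 3 (adjusted p 0.0531 to 0.116), and held without TN WT replicate 1 (0.97, adjusted p = 0.0005 in the unfiltered fit). The Txnip-/- call was lost without RT Txnip-/- replicate 2 in the unfiltered fit (adjusted p = 0.0523) and held in every other fit without 1 library. Between genotypes Gdf15 was at 0.04 at RT and 0.16 at TN in the unfiltered fit (adjusted p = 0.884 and 0.805), and at 0.24 and 0.71 (95% interval -0.53 to 1.96) in limma-voom, with no call.

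Fgf21, on chromosome 7 (45613890 to 45615490, minus strand), did not pass any test. Its reads were 6, 12 and 5 in RT WT, 10, 7 and 13 in RT Txnip-/-, 10, 8 and 19 in TN WT and 15, 6 and 20 in TN Txnip-/-. All 4 groups overlap. The sums of 23 (14.6 to 34.5), 30 (20.2 to 42.8), 37 (26.1 to 51.0) and 41 reads (29.4 to 55.6) overlap in their intervals too. In the limma-voom fit the genotype difference was 0.40 at RT (95% interval -0.50 to 1.30) and 0.22 at TN (-0.997 to 1.45).

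Slit2, on chromosome 5 (47983155 to 48307736, plus strand), was present at 14 to 41 reads per library, or 0.079 to 0.166 TPM over a transcript of 9968 bases. Its group sums were 71 and 91 reads in WT at RT and TN and 58 and 64 reads in Txnip-/-, and the groups overlap in all 4 comparisons. Il6, on the same chromosome (30013114 to 30019975, plus strand), had 0 to 5 reads per library and sums of 5, 7, 10 and 11 reads, with overlapping Poisson intervals from 1.62 to 19.7. In TPM, TN Txnip-/- (0.157 to 0.227) lay above RT Txnip-/- (0.045 to 0.147), as was so in either direction for 61.1% of all tested genes, and the other 3 pairs of groups overlap.

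Bmp8b, on chromosome 4 (123105161 to 123126094, plus strand), had 2, 2 and 8 reads in RT WT, 3, 3 and 1 in RT Txnip-/-, 0, 1 and 1 in TN WT and 2, 8 and 4 in TN Txnip-/-. The 2 TN groups do not overlap, as for 31.1% of all tested genes, and the sums were 2 (0.242 to 7.22) and 14 reads (7.65 to 23.5). RT WT libraries also lay above those of TN WT in TPM, where 57.5% of all tested genes did not overlap. In the unfiltered fit the genotype difference at TN had an adjusted p of 0.250 in limma and was not called. Exons of Bmp8b share 339 bases with the predicted gene Gm17244 and 133 with Ppie on the opposite strand. Mstn, on chromosome 1 (53061640 to 53068079, plus strand), had 5 reads in all 12 libraries, of which 3 were in RT Txnip-/- (2, 0 and 1), the group with the highest skeletal muscle marker sums. The part of muscle RNA in these reads was not tested. The 0 reads in RT WT allow up to 3 reads over the group as a one-sided limit, so no fold is given.

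**Figure D4:**
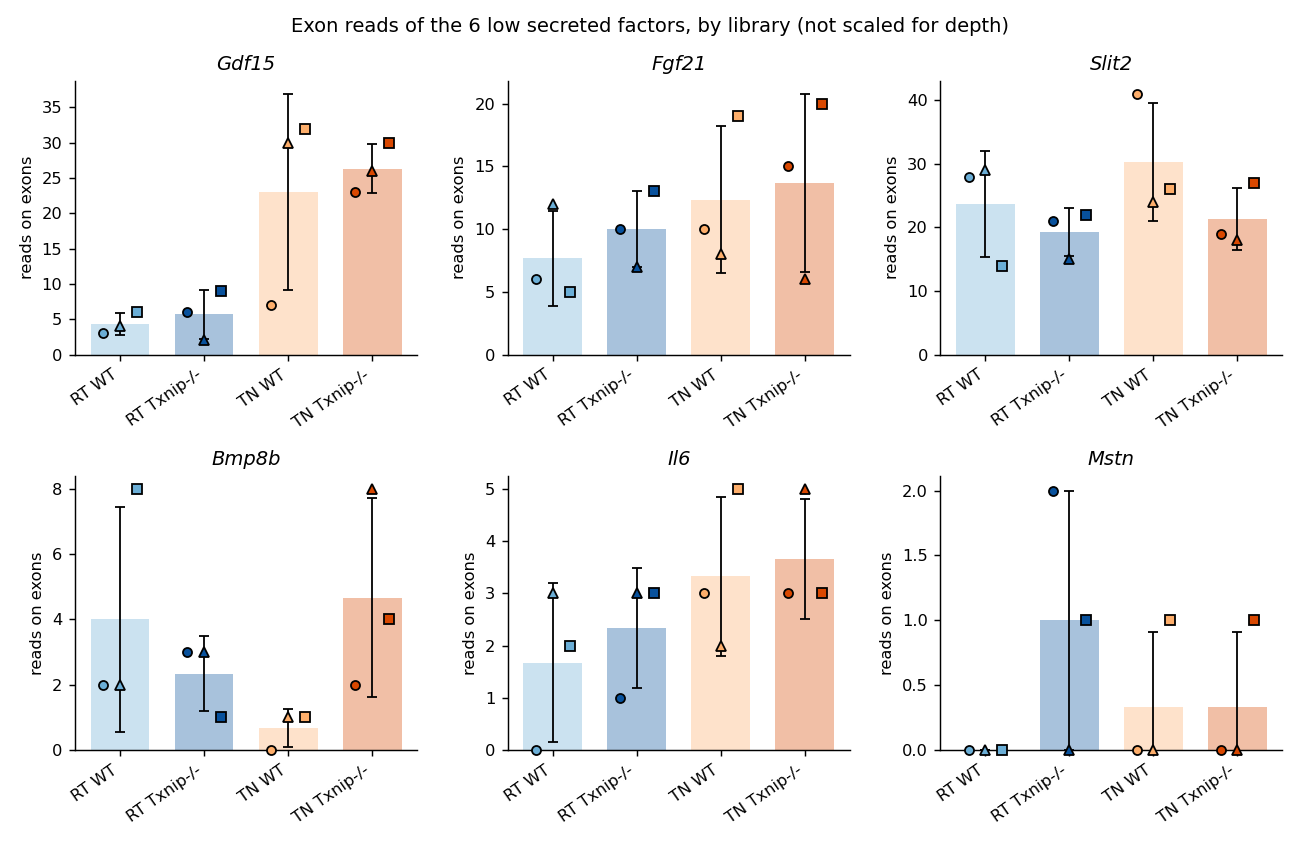
Recovered exon reads (vertical axes, each from 0, not scaled for depth) of Gdf15, Fgf21, Slit2, Bmp8b, Il6 and Mstn in the 4 groups, with a circle, triangle and square for replicates 1, 2 and 3, bars for means and whiskers for SD (n = 3). Gdf15 reaches 23 to 32 reads in 5 of the 6 TN libraries against 2 to 9 in the RT libraries, and the other 5 genes overlap between most groups.

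Of 16 other secreted factors reported from brown fat, 12 were tested at RT and 13 at TN, and S100b was the 1 gene called between genotypes at RT. S100b, a calcium-binding protein that brown adipocytes release toward nerves, fell by 1.60 at RT (SE 0.13, adjusted p = 0.0085) and by 1.12 at TN (SE 0.19, adjusted p = 0.0123), the same sign as Ptgds at each temperature. Its libraries held 69.4 to 75.7 TPM in RT WT, 19.1 to 28.0 in RT Txnip-/-, 31.6 to 45.5 in TN WT and 15.0 to 23.3 in TN Txnip-/-. As for Ptgds, the RT call was lost without RT WT replicate 2. At TN 2 of 13 rose and 2 fell, where 6.49% and 2.17% of all genes did. Sparc, a collagen-binding matrix protein, rose by 0.56 (adjusted p = 0.0153) and Nucb2, the precursor of nesfatin, by 0.36 (adjusted p = 0.0480), calls lost in 3 and in 10 of 15 alternative fits. In the same comparison 6 of 8 fibroblast markers were called higher, with their part in the Sparc value not tested. Kng2, a kininogen, fell by 0.58 (SE 0.12, adjusted p = 0.0249), a call lost without the filter on low TPM and without each of the 3 TN WT libraries.

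In TN against RT, 4 of these 13 rose and 1 fell in WT, and 5 rose and none fell in Txnip-/-, where 31.4% and 30.9% of all genes rose, while under median centring 3 rose and 1 fell in WT and 4 rose and 2 fell in Txnip-/-. Nucb2 rose by 0.71 and 0.95 and Kng2 by 0.82 and 0.50 (the Txnip-/- call of Kng2 was lost under median centring), and Metrnl (meteorin-like) by 0.67 and 0.69. S100b fell by 0.86 and Vegfa, the vascular growth factor, rose by 0.47 in WT, the latter not called under median centring. In Txnip-/- Sparc rose by 0.75 and Lcn2 (lipocalin 2), counted among the 5, by 1.43. Lcn2 reached the minimum mean chiefly through TN Txnip-/-, the group where it is high, so its value is given without a test. Lcn2 was at 0.115 to 0.562 TPM in RT Txnip-/- and 1.60 to 3.69 TPM in TN Txnip-/-. Il6st, Abca1, Igfals and Metrnl were named after their values were seen, to complete these counts.

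**Figure D5:**
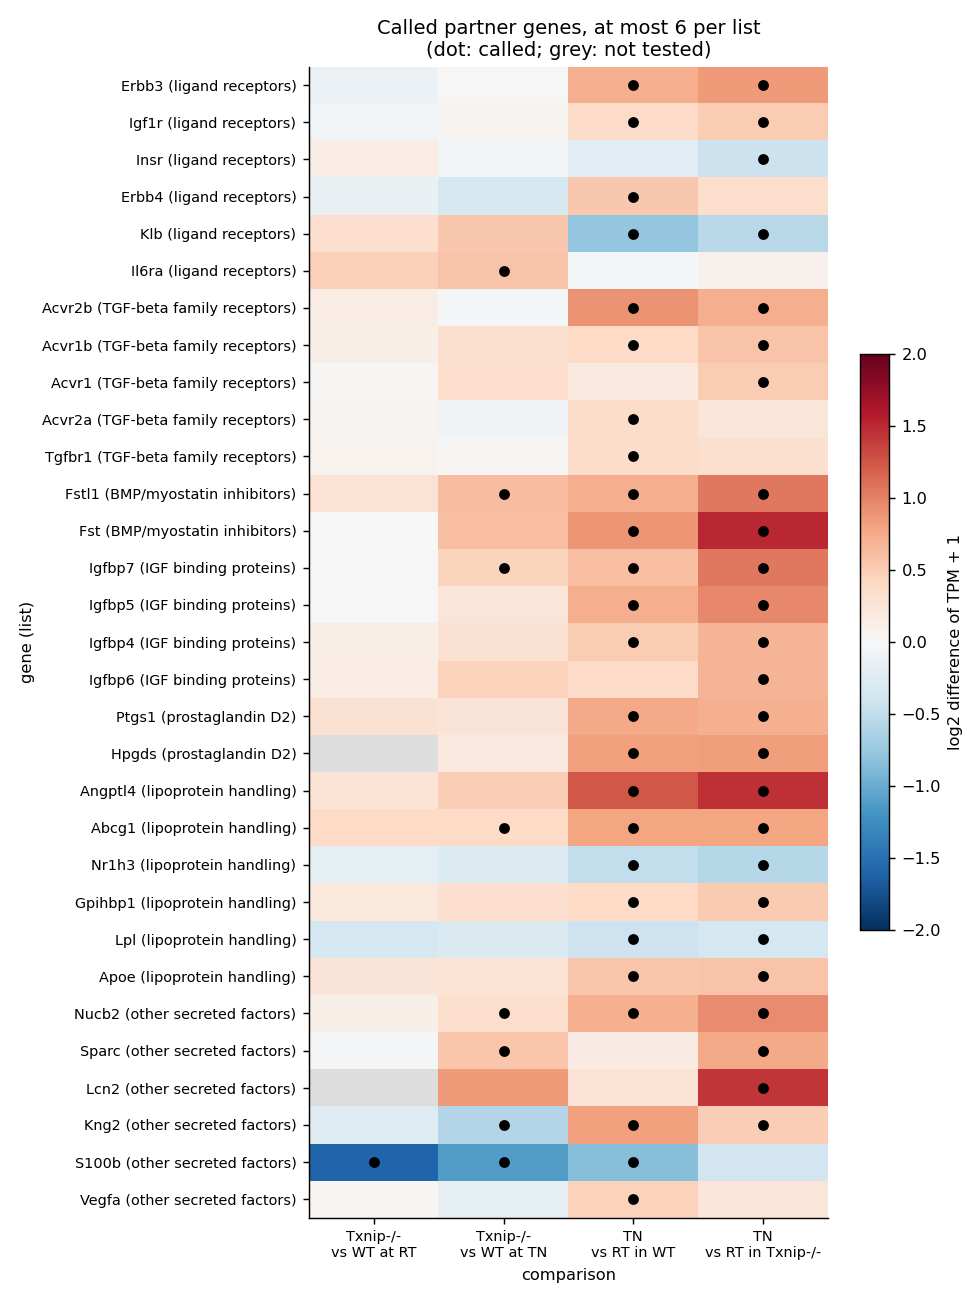
Log2 differences of TPM + 1 (colour) of partner genes called in at least 1 comparison, at most the 6 with the smallest adjusted p of a list, one row per gene with its list, in 4 comparisons, with black dots for calls and grey where a gene was not tested. S100b is lowest at RT with -1.60, and most calls stand in the 2 temperature comparisons.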

How the data were processed

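Poly-A RNA of 12 BAT libraries was read as single-end reads, which the authors aligned to mm10 with STAR 2.7.5a and counted on exons with HOMER 4.11.1. The authors deposited these as TPM for 25124 genes with 1 transcript length per gene. For each temperature they also deposited log2-scale values of 6 libraries, used here as an alternative, and their own fold changes and p-values, not used here. Counts are not analysed as deposited. They were recovered from the TPM, which gave whole numbers within 0.1 for 100% of low values and for 100% of values at 50 to 200 reads.

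Comparisons were made with limma 3.58.1 in R 4.3.3 (empirical Bayes with trend) on log2(TPM + 1) where the mean TPM was 1 or more, with Benjamini-Hochberg adjustment over all genes. Genotypes were compared on the 6 libraries of a temperature. Temperatures and the interaction were fitted on 12 libraries. The pipeline was tested on simulated data. The alternatives were a pseudocount of 0.1, no filter, a mean TPM of at least 5, upper-quartile scaling, median centring, a replicate block, all 12 libraries in 1 fit, the authors' log2 values and each library left out.

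The members and lists were chosen with earlier results of these data known. Some genes of the lists are not reported here and were left out of their counts. By the rule for named genes, the text names the members, Txnip, the called genes of the partner lists (the 6 with the smallest adjusted p where more were called) and the 2 genes most like each expressed member by Pearson r. It also names untested or uncalled genes that complete a list, cell markers and genes overlapping a member, outside this rule. Figures were drawn with matplotlib 3.10.9.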

Additional observations from a re-analysis of the deposited data

How the results depend on the processing

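Of 299 values of the 4 tested members under the alternatives, 279 kept their direction and their side of the threshold, 11 lost a call, 1 gained one and 8 changed sign, none of the 8 with a call. The causes were not tested. Pltp at RT, 0.01, turned to -0.011 under upper-quartile scaling, -0.016 under median centring, -0.023 on the authors' log-scale values and -0.011 in limma-voom on recovered reads, and ran from -0.048 to 0.072 when 1 library was left out. Igf1 at RT ran from -0.0077 (without RT Txnip-/- replicate 1) to 0.69, and Nrg4 in TN against RT in WT from -0.18 to 0.027 (without RT WT replicate 3), both when 1 library was left out. Median centring gave -0.29 for this Nrg4 value.

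The number of genes called between genotypes at RT, 178, was 44 without a filter on low TPM, 101 at a mean TPM of at least 5 and 275 with all 12 libraries in 1 fit. At TN, 1116 became 621 without the filter. In TN against RT, a mean TPM of at least 5 gave 2984 genes in WT in place of 4717 and 3115 in Txnip-/- in place of 4891, with fewer genes tested, and limma-voom on recovered reads gave 7232 in WT and 2 genes in the interaction in place of 1. In WT that fit called 2 members in place of 1, with Gdf15 added to Igf1. Without the filter the 1 member called in WT was Gdf15, and under median centring it was Pltp, lower.

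Leaving out 1 library at a time gave 2 to 159 genes and 0 to 1 members at RT, 456 to 1005 genes and 2 to 3 members at TN, 4094 to 4754 genes and 0 to 1 members in TN against RT in WT, 4303 to 5127 genes and 2 to 3 members in Txnip-/-, and 1 to 6 genes and 0 members in the interaction. The low RT count was without RT WT replicate 2.

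Median centring moved the split of called genes in TN against RT from 3919 higher and 798 lower to 1926 and 1841 in WT, and from 3858 and 1033 to 2294 and 2435 in Txnip-/-. Upper-quartile scaling gave 2867 and 1205 in WT and 3207 and 1455 in Txnip-/-.

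The labels do not say whether the replicate numbers pair the samples. The deviations of libraries with 1 number in both genotypes correlated with r of 0.297, -0.0221 and 0.210 at RT and 0.042, 0.0228 and -0.0362 at TN. No such value was computed for libraries with differing numbers, so these correlations cannot decide it. With the replicate number as a block, 100 genes were called at RT and 977 at TN, and no member's call changed.

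At most 41 reads per library behind Fgf21, Bmp8b, Gdf15, Il6, Slit2 and Mstn limit what these data can show of them.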
